A study of Mus musculus with 4 samples.

Results

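The 36 genes described here carry glucose through glycolysis to lactate or respond to low oxygen: glucose and lactate transporters, glycolytic enzymes, hypoxia-inducible factor (HIF) subunits and targets of HIF. They were listed by name and function, with no threshold on their values, and looked up in a table of 35275 genes, and all 36 were found there and passed the filter on low values. The libraries came from lung tumours of Balb/c mice, 2 from wild-type (Nrf2 +/+) and 2 from knockout (Nrf2 -/-) mice. Nrf2 (gene Nfe2l2) activates transcription of antioxidant and detoxifying enzymes. All mice, wild-type controls included, had been given the carcinogen vinyl carbamate at 16 mg/kg, in 2 or 4 doses, and tumours were taken after 40 to 44 weeks. Each sample pooled 3 to 4 tumours, and no tissue from untreated mice was analysed here. How the knockout allele was made, and which sample had which number of doses or weeks, is not given in the sources used here.

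Glycolysis splits glucose into pyruvate in the cytosol. Lactate dehydrogenase turns pyruvate into lactate, which regenerates the NAD+ that glycolysis needs, and many tumours use this route heavily even where oxygen is present. HIF is a dimer of an oxygen-labile alpha subunit (HIF-1alpha, from Hif1a, or HIF-2alpha, from Epas1) and the stable subunit ARNT. In oxygen, prolyl hydroxylases of the Egln family mark the alpha subunits for destruction, so that HIF is controlled mainly at the protein level and the transcripts of its targets are the usual readout.

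Levels are fragments per kilobase of gene and per M reads (FPKM; 1 M is 1e6), so that genes of different length can be set side by side. The wild-type libraries held 21.66 and 21.22 M reads and the knockout libraries 17.98 and 16.89 M, totals recovered from the steps between low values. The targeted gene, Nfe2l2, measured 96.3 and 87.9 FPKM in wild type 1 and 2, with 3.66 and 2.96 FPKM left in knockout 1 and 2. Markers of alveolar type 2 cells, from which such tumours commonly arise, were abundant in every library, with 8 of 8 tested and a sum of 101810 to 117050 FPKM. Groups were compared with limma on log2(FPKM + 1), with p-values adjusted over all 13147 tested genes, and calls were made at an adjusted p under 0.05.

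No gene of the 36 was called, by limma at an adjusted p under 0.05, where 0.114% of all tested genes were (0.0761% higher and 0.0380% lower). The lowest adjusted p among them was 0.158. At a limma unadjusted p under 0.05 there were 8 genes, or 22.2%, against 15.4% of all tested genes. Of these 5 were lower and 3 higher, against 7.01% and 8.36% of all tested genes. Lower in knockout tumours at that level were the glucose transporter Slc2a3, the enzymes Hk2, Aldoc and Pkm, and Ndrg1, and higher were Pdk1, Ddit4 and Adm. For 14 genes both knockout libraries lay below both wild-type libraries (38.9%, against 25.4% of all tested genes), and for 4 above (11.1%, against 22.7%). The log2 fold change was below 0 for 25 of the 36 (69.4%, against 50.8% of all tested genes), and its median was -0.11, against -0.00 over all tested genes.

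Markers of other cells differed between the same libraries. The sum of neutrophil markers was 31.5 and 33.1 FPKM in the wild-type libraries against 105 and 119 FPKM in the knockout libraries. Of 9 tested, 7 were higher in both knockout libraries (77.8%, against 22.7% of all tested genes). By limma 3 were called (S100a8, S100a9 and Csf3r), where 0.0761% of all tested genes were called higher. Ly6g was near 0 in every library and was not tested. It was at 0.0723 and 0.147 FPKM, from 1 and 2 reads, in wild type 1 and 2 and at 0 in both knockout libraries. T cell markers summed to 15.1 and 13.4 against 31.4 and 39.3 FPKM (7 of 7 higher), and red blood cell markers to 247 and 490 against 1194 and 1094 FPKM (5 of 5 higher). Macrophage markers summed to 419 and 405 against 425 and 518 FPKM (2 of 8 higher). Both knockout libraries were also higher for 3 of 4 tested B cell, smooth muscle and club cell markers each, and 2 of 3 ciliated cell markers. The counts were 4 of 7 for fibroblasts, 3 of 8 for endothelium, 2 of 6 for alveolar type 1 and 1 of 8 for alveolar type 2 cells. The part of these cells in the values of the 36 genes was not tested. In pooled tumours, fewer cells of a type and less RNA per cell cannot be told apart.

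**Figure D1:**
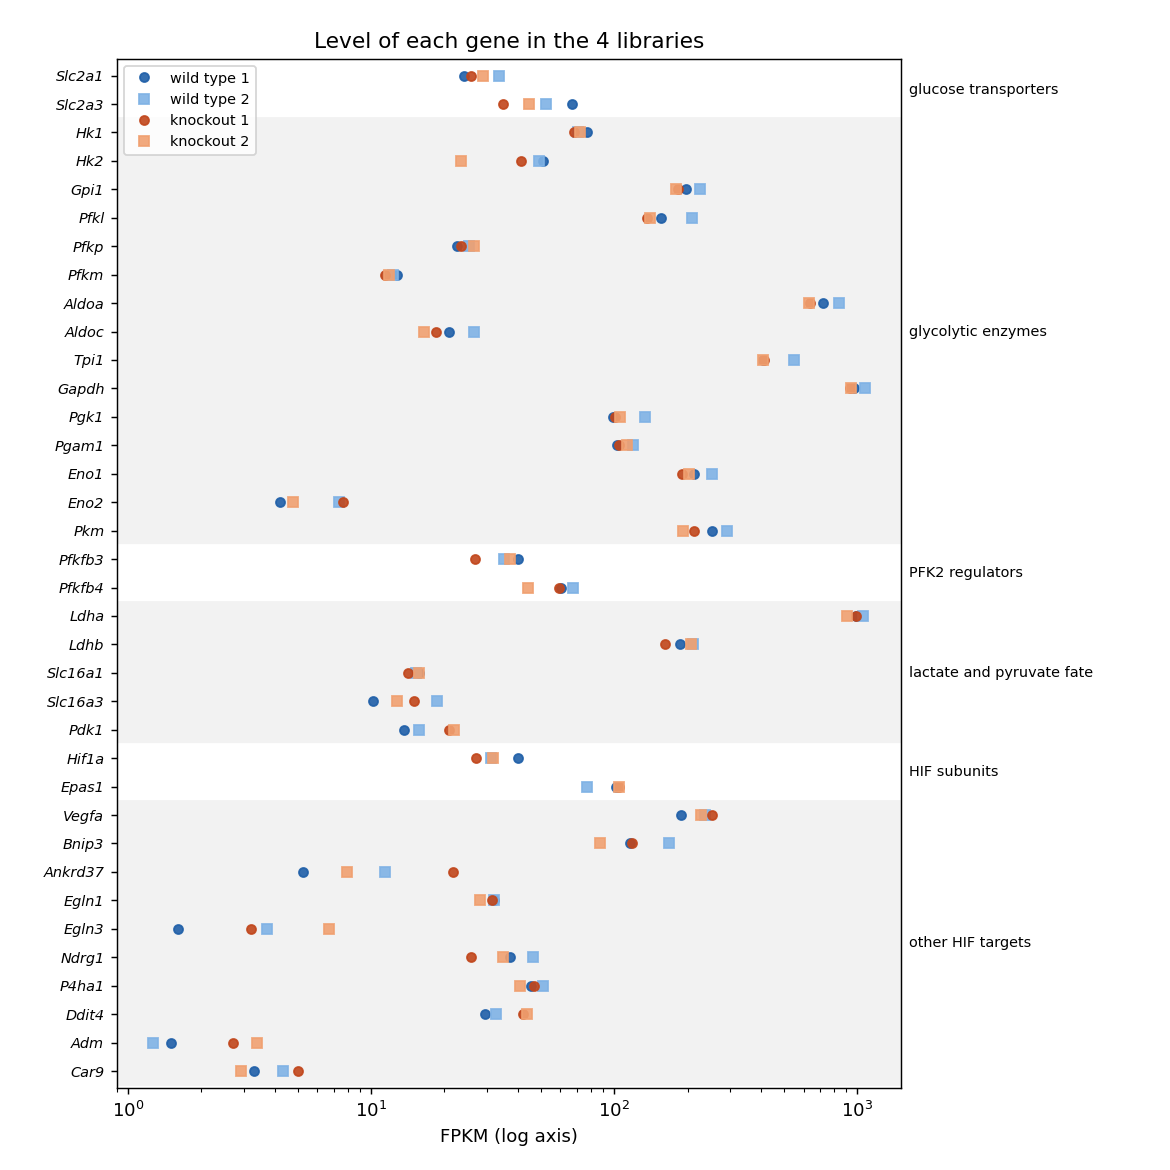
FPKM of each of the 36 genes (log axis) in the 4 libraries, grouped by role; each point is 1 library. Gapdh and Ldha are highest and Adm, Egln3 and Car9 below 10, while most genes keep their 4 libraries close together.

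The transcripts of the 36 genes lay at very different levels. Gapdh, which makes 1,3-bisphosphoglycerate, and Ldha, the muscle-type lactate dehydrogenase subunit, ranked 57 and 58 of 13147 genes by mean FPKM in wild-type tumours. Aldoa, the main aldolase, ranked 90, and Tpi1, triosephosphate isomerase, 157. At the other end Adm was at 1.26 to 3.39 FPKM and Egln3 at 1.60 to 6.72 FPKM. The tumour hypoxia marker Car9, a carbonic anhydrase, was at 2.91 to 5.01 FPKM, and the neuronal enolase Eno2 at 4.23 to 7.62 FPKM. Together the 36 genes took 0.666% and 0.739% of the reads in wild type 1 and 2, and 0.636% and 0.624% in knockout 1 and 2.

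Of the glucose transporters, Slc2a3 (chromosome 6, 122727809 to 122801640, mm10), a high-affinity carrier, was the more abundant. It was at 66.9 and 52.2 FPKM in wild type 1 and 2 and at 34.7 and 44.7 FPKM in knockout 1 and 2. The groups did not overlap, with wild type 1 highest and knockout 1 lowest, and the log2 fold change was -0.57 ± 0.17 (SE; limma unadjusted p = 0.0156, adjusted p = 0.236). Slc2a1, the widely expressed basal carrier, was at 24.0 and 33.6 FPKM against 25.8 and 28.8 FPKM. Here both knockout libraries lay between the wild-type libraries, and the 95% interval of the log2 fold change ran from -0.48 to 0.36. Slc2a1 thus made up 26.4% and 39.2% of the FPKM of both carriers in wild-type tumours and 42.6% and 39.2% in knockout tumours. Wild type 2 and knockout 2 were equal in that share to the digits given, so the groups barely parted.

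Most glycolytic enzymes had a log2 fold change below 0. Of 15 enzymes 0 were called, and Hk2, Aldoc and Pkm (3, all lower) had a limma unadjusted p under 0.05, where 15.4% of all tested genes did in either direction and 7.01% were lower. For 9 of the 15 (60.0%, against 25.4% of all tested genes) both knockout libraries lay below both wild-type libraries, and for 0 above (against 22.7%). Their median log2 fold change was -0.20, with 13 below 0. The sum of their FPKM was 3305 and 3882 in the wild-type libraries against 3080 and 3075 in the knockout libraries. Wild type 2 was the highest of the 4 libraries for 10 of the 15 (against 21.6% of all tested genes), and without it the median was -0.12 (10 of 15 below 0), against -0.35 without wild type 1 (15 of 15). Without wild type 2 the enzymes without overlap were 10 lower and 5 higher (66.7% and 33.3%, against 37.1% and 37.7% of all tested genes). Without wild type 1 they were 12 lower and 0 higher (80.0% lower, against 37.9% lower and 32.3% higher of all tested genes).

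Wild type 2, the library highest for most glycolytic enzymes and lowest for Epas1, was the lowest library for 2595 of all 13147 tested genes. It was lowest for 8 of 8 endothelial markers. Their sum was 180 and 107 FPKM in the wild-type libraries against 169 and 248 FPKM in the knockout libraries. It was also lowest for 7 of 7 tested fibroblast markers (346 and 234 against 336 and 547 FPKM) and 4 of 4 club cell markers. The part of these cells in the enzymes' values was not tested.

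Hexokinases trap glucose as glucose 6-phosphate. Hk2 (chromosome 6, 82725025 to 82774454, mm10), the isozyme most tied to tumours, was at 51.1 and 49.1 FPKM in wild type 1 and 2 and at 41.2 and 23.5 FPKM in knockout 1 and 2. Its means were 50.1 ± 1.38 and 32.4 ± 12.6 FPKM (SD, n = 2 each), and the log2 fold change was -0.67 ± 0.25 (SE; limma unadjusted p = 0.0341, adjusted p = 0.291). The difference was -1.06 without knockout 1 and -0.27 without knockout 2. Hk2 was called without knockout 1, but there the knockout group is 1 library assumed to vary like the wild-type pair, and calls over all genes went from 15 to 252. Hk1, the housekeeping isozyme, was at 77.4 and 70.7 FPKM against 67.9 and 72.2 FPKM, with overlapping groups. The share of Hk2 in the sum of both was 39.8% and 41.0% in wild-type tumours and 37.8% and 24.5% in knockout tumours.

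Gpi1, which isomerizes glucose 6-phosphate, and Pfkl, the liver-type subunit of phosphofructokinase, were lower in both knockout libraries. Gpi1 was at 197 and 225 FPKM in wild type 1 and 2 against 182 and 179 in knockout 1 and 2 (limma adjusted p = 0.440). Pfkl was at 156 and 209 FPKM against 136 and 140 FPKM, with wild type 2 well above the other 3 libraries (log2 fold change -0.39 ± 0.16 (SE), limma unadjusted p = 0.0502), and the change was -0.60 without wild type 1 and -0.18 without wild type 2. Phosphofructokinase makes the committing step of glycolysis. The platelet-type subunit Pfkp was at 22.6 and 25.2 against 23.4 and 26.5 FPKM, and the muscle-type subunit Pfkm at 12.8 and 12.3 against 11.4 and 11.8 FPKM. Pfkl made up most of the family in every library, with 81.5% and 84.8% of its FPKM in wild-type and 79.6% and 78.5% in knockout tumours. Pfkp took 11.8% and 10.2% against 13.7% and 14.9%, and neither share overlapped between the groups.

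The aldolases cut fructose 1,6-bisphosphate. Aldoa was at 724 and 839 FPKM in wild type 1 and 2 and at 638 and 634 FPKM in knockout 1 and 2, and the knockout libraries lay closer together than the wild-type ones (limma adjusted p = 0.412). Aldoc (chromosome 11, 78322968 to 78327781, mm10), the brain-type aldolase, was at 20.9 and 26.4 FPKM against 18.5 and 16.5 FPKM, also without overlap (log2 fold change -0.41 ± 0.14 (SE), limma unadjusted p = 0.0304, adjusted p = 0.279), and -0.24 without wild type 2. Tpi1 was at 408 and 546 FPKM against 413 and 410 FPKM, so that wild type 2 alone stood apart and wild type 1 was the lowest library. Pgk1, phosphoglycerate kinase, showed the same order of libraries at its ends, with 98.3 and 134 FPKM against 101 and 105 FPKM. Without wild type 2 the log2 fold change of Tpi1 was 0.01 and that of Pgk1 0.06, against -0.20 and -0.16 with it.

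Gapdh was at 965 and 1077 FPKM in wild type 1 and 2 and at 933 and 944 FPKM in knockout 1 and 2. Its log2 fold change was -0.12, with a 95% interval of -0.50 to 0.26, and -0.31 after quantile normalization. Pgam1, phosphoglycerate mutase, was at 103 and 119 against 104 and 113 FPKM, inside the wild-type range. Eno1, the main enolase, was at 213 and 251 FPKM against 190 and 203 FPKM, without overlap (limma adjusted p = 0.453). Eno2 was spread more widely and overlapped, at 4.23 and 7.34 FPKM against 7.62 and 4.76 FPKM.

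Pkm (chromosome 9, 59656368 to 59679375, mm10), pyruvate kinase, makes pyruvate in the last step and was at 253 and 291 FPKM in wild type 1 and 2 and at 213 and 192 FPKM in knockout 1 and 2. The groups did not overlap, and the log2 fold change of -0.42 ± 0.13 (SE) had a limma unadjusted p of 0.0176 and an adjusted p of 0.246. Its M1 and M2 splice forms share 1 gene and cannot be told apart in values per gene.

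The regulators Pfkfb3 and Pfkfb4 make fructose 2,6-bisphosphate, the activator of phosphofructokinase. Pfkfb4 was at 60.5 and 67.7 FPKM in wild type 1 and 2 and at 59.1 and 44.1 FPKM in knockout 1 and 2, with knockout 2 apart from the other 3. Pfkfb3 was at 40.1 and 35.0 against 26.7 and 37.1 FPKM, and knockout 1 was the low library instead. Their limma adjusted p was 0.403 and 0.545.

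**Figure D2:**
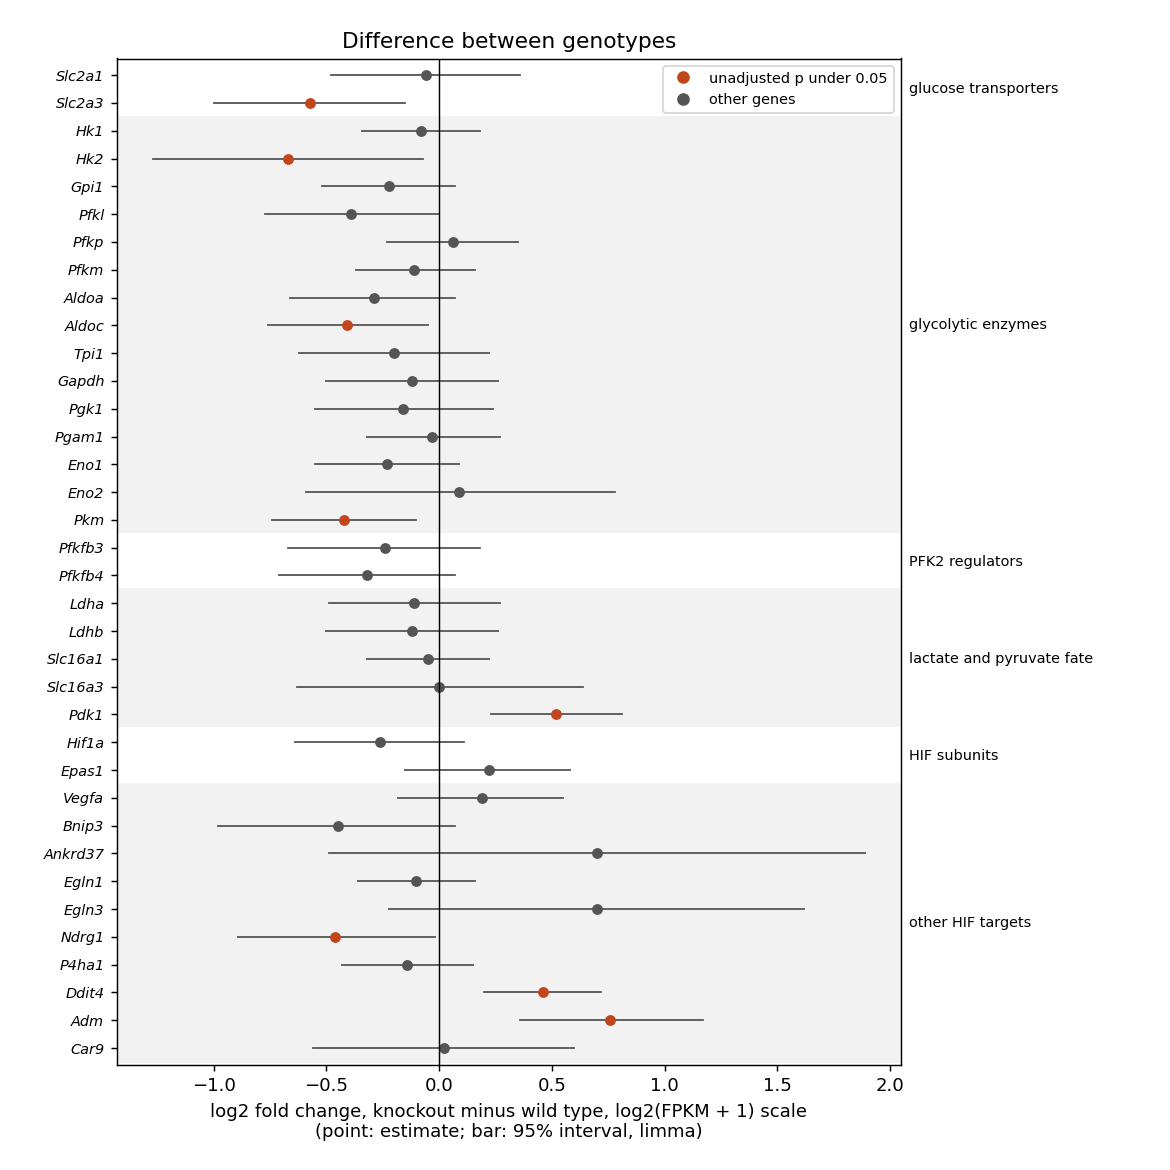
Log2 fold change of each of the 36 genes, knockout minus wild type on the log2(FPKM + 1) scale, with its 95% interval from limma. Of the 15 glycolytic enzymes 13 lie left of 0; the 8 genes with an unadjusted p under 0.05 are in orange.

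At the branch point after pyruvate, the enzymes that make lactate and the carriers that move it gave overlapping or nearly touching groups, and Pdk1 stood apart. Ldha was at 983 and 1055 FPKM in wild type 1 and 2 and at 982 and 906 FPKM in knockout 1 and 2, where wild type 1 and knockout 1 were almost equal. Ldhb, the heart-type subunit, was at 186 and 211 against 161 and 207 FPKM. The share of Ldha in the sum of both was 84.1% and 83.3% in wild-type and 85.9% and 81.4% in knockout tumours, a difference of -0.03 percentage points with overlapping groups.

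Slc16a1 and Slc16a3 encode monocarboxylate transporters, of which the product of Slc16a3 is the carrier best known for lactate export. Slc16a1 was at 15.7 and 15.3 FPKM against 14.2 and 15.7 FPKM. Slc16a3 was at 10.2 and 18.6 FPKM in wild type 1 and 2, and both knockout libraries lay between them at 15 and 12.8 FPKM. Its 95% interval of the log2 fold change was wide, from -0.63 to 0.64.

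Pdk1 (chromosome 2, 71873224 to 71903858, mm10) encodes a kinase that shuts off pyruvate dehydrogenase and so limits the use of pyruvate in mitochondria. It was at 13.6 and 15.7 FPKM in wild type 1 and 2 and at 20.9 and 21.9 FPKM in knockout 1 and 2. Both knockout libraries were above both wild-type libraries, with a log2 fold change of 0.52 ± 0.12 (SE; limma unadjusted p = 0.00429, adjusted p = 0.165). With each library left out in turn it ranged from 0.42 to 0.62.

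Of the HIF alpha subunits, Epas1 was the more abundant transcript. Epas1, known for its high level in lung endothelium, was at 102 and 77.5 FPKM in wild type 1 and 2 and at 104 and 104 FPKM in knockout 1 and 2. Hif1a was at 40.1 and 31.2 against 27.0 and 31.8 FPKM. Neither passed the test (limma adjusted p = 0.533 and 0.465), the log2 fold change of Epas1 was 0.22 and without wild type 2 0.02, and the groups overlapped for Hif1a. The share of Hif1a in the sum of both was 28.2% and 28.7% in wild-type and 20.7% and 23.5% in knockout tumours, and these shares did not overlap.

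**Figure D3:**
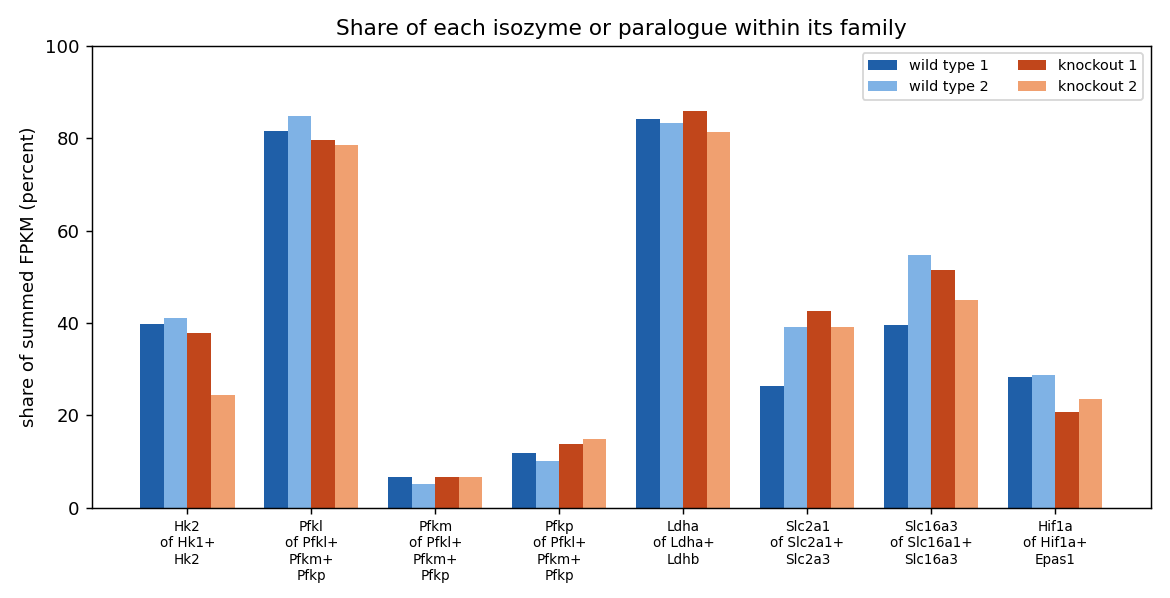
Share of each isozyme, carrier or HIF subunit in the summed FPKM of its family (percent), 1 bar per library. The Hif1a and Pfkl shares are lower in both knockout libraries, while the Ldha share overlaps between the genotypes.

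Across the 8 shares, 5 did not overlap between the genotypes: those of Hk2, Pfkl and Hif1a were lower in knockout tumours, and those of Pfkp and Slc2a1 higher. Of all tested genes, 25.4% were lower and 22.7% higher without overlap. The shares of Pfkl, Pfkm and Pfkp are parts of 1 sum, so those of Pfkl and Pfkp are not independent. An exact two-sided permutation test with 2 libraries against 2 cannot go below 0.333, which is the p of each of those 5 (0.533 after Benjamini-Hochberg adjustment over the 8 shares). A share within a library does not depend on the scaling of the library.

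The targets of HIF outside glycolysis had no common direction. Of 10 genes 0 were called, and 2 were higher and 1 lower at a limma unadjusted p under 0.05 (30.0%, against 15.4% of all tested genes). Without overlap, 2 lay above and 2 below the wild-type libraries, shares of the 10 that are near the 22.7% and 25.4% of all tested genes. Their median log2 fold change was 0.10, with 6 above 0. The sign of that median was not stable: it was -0.04 without wild type 1, -0.07 without knockout 1, 0.26 without wild type 2 or without knockout 2, and -0.10 over the targets that passed a filter at 5 FPKM.

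Ddit4 (chromosome 10, 59949669 to 59951834, mm10) encodes REDD1, an inhibitor of the growth kinase mTORC1. It was at 29.4 and 32.6 FPKM in wild type 1 and 2 and at 42.1 and 43.8 FPKM in knockout 1 and 2. The knockout libraries were both higher, and the log2 fold change was 0.46 ± 0.11 (SE; limma unadjusted p = 0.00482, adjusted p = 0.172), with 0.39 to 0.53 when each library was left out. Adm (chromosome 7, 110627661 to 110629820, mm10) encodes adrenomedullin, a peptide that widens blood vessels. It was low, at 1.5 and 1.26 FPKM, from 34 and 28 reads, in wild type 1 and 2, and at 2.70 and 3.39 FPKM, from 51 and 60 reads, in knockout 1 and 2. Its log2 fold change of 0.76 ± 0.17 (SE; limma unadjusted p = 0.00346, adjusted p = 0.158) is damped by the pseudocount and was 1.09 with a pseudocount of 0.1 and 0.20 with 10.

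Ndrg1 (chromosome 15, 66929318 to 66969640, mm10), a stress-induced gene named for its link to differentiation, went the other way. It was at 37.3 and 46.2 FPKM in wild type 1 and 2 and at 25.7 and 34.9 FPKM in knockout 1 and 2 (log2 fold change -0.46 ± 0.18 (SE), limma unadjusted p = 0.0422, adjusted p = 0.309), and the change was -0.24 without knockout 1. Bnip3, a receptor for the removal of mitochondria, was at 116 and 167 against 118 and 87.3 FPKM, with overlap, a log2 fold change of -0.45 that was -0.20 without wild type 2. Vegfa, the main growth factor for blood vessels, was the most abundant of these targets, at 188 and 237 FPKM against 253 and 228 FPKM. Its interval of -0.18 to 0.55 spans 0.

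The oxygen sensors differed in level. Egln1, the prolyl hydroxylase that acts on HIF-1alpha in most tissues, was at 28.1 to 32.0 FPKM in the 4 libraries. Egln3, a hydroxylase that HIF itself induces, was at 1.60 and 3.74 FPKM against 3.20 and 6.72 FPKM, so that the groups overlapped, and its log2 fold change of 0.70 was 0.26 without knockout 2. P4ha1, which hydroxylates collagen, was at 40.9 to 51.1 FPKM, and Car9 overlapped as well.

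Ankrd37, a small HIF target of unsettled function, had the widest spread, at 5.23 and 11.4 FPKM in wild type 1 and 2 and 21.6 and 7.96 FPKM in knockout 1 and 2. Knockout 1 alone was high. Its log2 fold change of 0.70 was 0.03 without knockout 1 and 1.37 without knockout 2. Ankrd37 overlaps Ufsp2 on the opposite strand, which reached 30.6 FPKM, and their reads may have been mixed, since use of strand is not given in the sources used here.

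**Figure D4:**
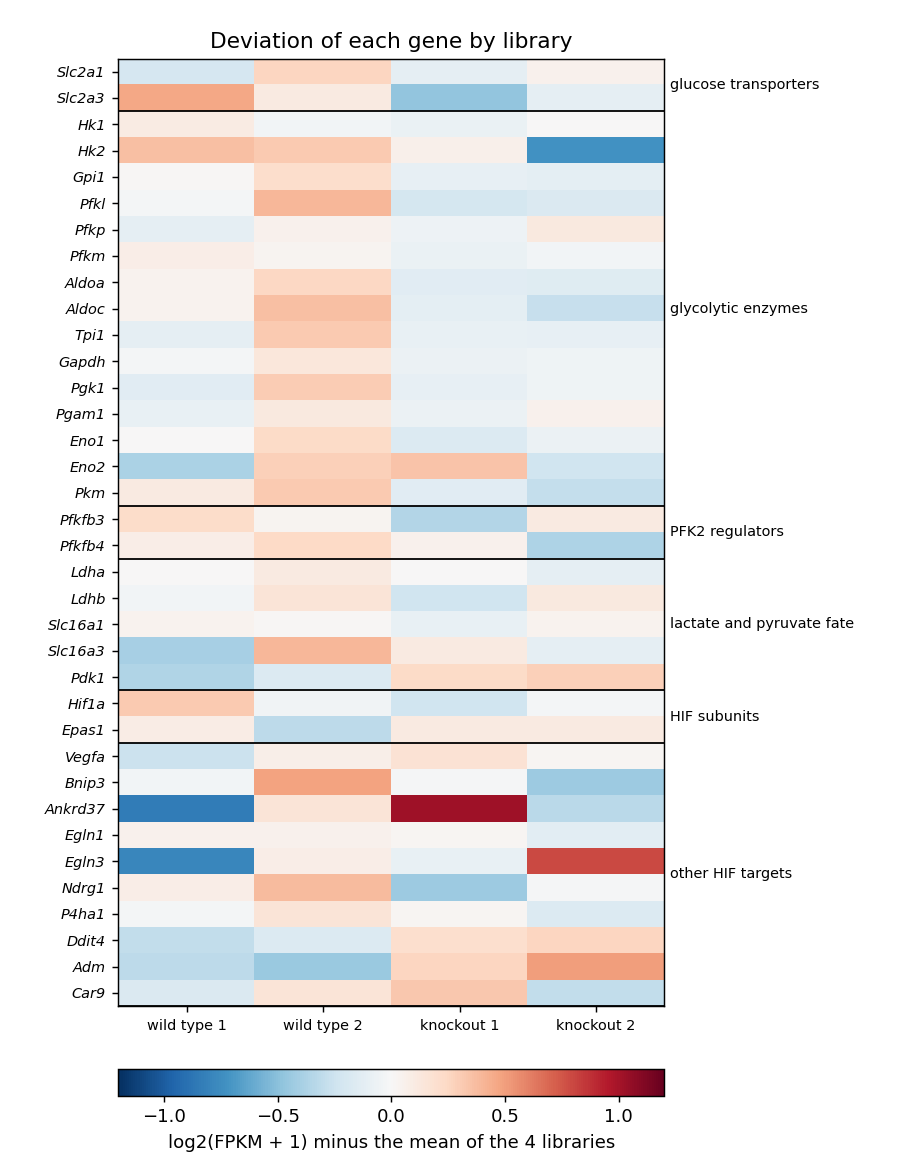
Deviation of each gene in each library from its own mean over the 4 libraries, as log2(FPKM + 1), grouped by role. Wild type 2 is red for most glycolytic enzymes; Pdk1, Ddit4 and Adm are blue in both wild-type and red in both knockout libraries; Ankrd37 is darkest red in knockout 1.

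HIF binds the letters ACGTG or GCGTG, and Nrf2 a site that contains TGACNNNGC. The 250 bases before the annotated start were searched for each on both strands in the RefSeq promoters of GRCm38.p6, which held 33 of the 36 genes (all but Slc2a3, Ndrg1 and Epas1). ACGTG occurred before at least 1 start of 20 of the 33 genes, or 60.6%, against 18.5% of all 27025 genes in the table. GCGTG occurred for 22, or 66.7%, against 30.9%, and TGACNNNGC for 5, or 15.2%, against 11.5%. Counted by window, the shares were 48.9% against 16.6%, 55.3% against 28.2% and 10.6% against 10.2%, in the same order. The comparison is with all genes, expressed or not, while the 36 were listed in part as targets of HIF. No conclusion is drawn from it, and a match is only a match of letters. Shown are the windows of Hk2 and Pkm (lower in both knockout libraries) and of Ddit4 and Adm (higher in both). The window of Ldha, among the most abundant of the 36, is shown as well. These genes were chosen after their values were seen, and whether the letters bear on direction was not tested. Each reads 5′ to 3′ on the strand of the gene and ends just before the RefSeq start. For Pkm and Ldha, which have 2 windows each, the one with more ACGTG is shown. Both lie inside the span of the gene, which begins at 59656368 for Pkm and 46841475 for Ldha. The Ddit4 window reaches into its gene, which begins at 59951834 on the minus strand. For Ldha and Adm the bases checked after the RefSeq start were found in no annotated transcript, so these starts are less certain. Capitals mark ACGTG or its reverse complement CACGT, except in Adm, which holds no ACGTG and where they mark GCGTG or CACGC. The second marked run of Adm also lies inside a match of TGACNNNGC, and Adm is among the 5 genes with those letters.
Hk2, chr6:82774455-82774704, minus strand: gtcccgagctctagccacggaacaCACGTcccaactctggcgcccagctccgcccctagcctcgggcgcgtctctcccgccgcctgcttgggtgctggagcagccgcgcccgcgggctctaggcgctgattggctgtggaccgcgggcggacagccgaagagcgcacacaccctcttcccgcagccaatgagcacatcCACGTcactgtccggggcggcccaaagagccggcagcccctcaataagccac
Pkm, chr9:59656977-59657226, plus strand: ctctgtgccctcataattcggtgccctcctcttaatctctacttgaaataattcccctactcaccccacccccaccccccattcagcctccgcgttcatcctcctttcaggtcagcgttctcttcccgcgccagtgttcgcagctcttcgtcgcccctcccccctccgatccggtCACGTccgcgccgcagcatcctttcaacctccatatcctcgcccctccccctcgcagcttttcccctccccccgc
Ldha, chr7:46845554-46845803, plus strand: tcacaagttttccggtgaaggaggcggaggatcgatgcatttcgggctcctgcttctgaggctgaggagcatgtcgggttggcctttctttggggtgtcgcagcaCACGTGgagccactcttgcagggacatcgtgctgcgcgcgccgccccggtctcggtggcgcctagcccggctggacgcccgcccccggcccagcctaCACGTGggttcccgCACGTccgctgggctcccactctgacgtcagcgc
Ddit4, chr10:59951771-59952020, minus strand: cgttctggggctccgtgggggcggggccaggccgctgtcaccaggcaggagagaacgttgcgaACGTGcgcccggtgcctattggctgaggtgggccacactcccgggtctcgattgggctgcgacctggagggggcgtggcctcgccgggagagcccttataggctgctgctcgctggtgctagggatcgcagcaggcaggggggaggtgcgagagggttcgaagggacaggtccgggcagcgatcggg
Adm, chr7:110627407-110627656, plus strand: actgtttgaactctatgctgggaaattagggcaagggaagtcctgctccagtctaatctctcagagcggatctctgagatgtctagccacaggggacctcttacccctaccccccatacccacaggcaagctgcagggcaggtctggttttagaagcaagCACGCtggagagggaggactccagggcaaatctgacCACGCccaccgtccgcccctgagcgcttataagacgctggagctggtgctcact
Hk2 has its ACGTG matches 226 and 52 bases before the start, Pkm 75 and Ddit4 187 bases before it. The Ddit4 window also holds 1 GCGTG, which is not marked. Ldha has 3 marked runs, of which 2 are the palindrome CACGTG, read as ACGTG on either strand.

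Genes next to the 36 in the pathways were read from lists chosen by function. Of 21 tested genes of other glucose carriers, isozymes and gluconeogenesis 0 were called, with a median log2 fold change of 0.08. At a limma unadjusted p under 0.05, Slc2a6, a carrier of leukocytes and lysosomes, was higher (0.439 and 0.504 FPKM in wild type 1 and 2, 1.16 and 1.44 in knockout 1 and 2). Slc2a6 passed the filter on low values only through the knockout libraries, so its direction carries no weight. It rests on 16 and 18 reads against 35 and 41. Lower were the glucose carrier Slc2a10, the hexokinase-like Hkdc1 and the mitochondrial enzyme Pck2. Hkdc1 was at 54.9 and 50.4 against 37.5 and 43.3 FPKM, a level like that of Hk2.

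Of 13 genes for the entry of pyruvate into mitochondria and its use there 0 were called, and the median was 0.02. Mpc2, a subunit of the mitochondrial pyruvate carrier, was at 47.3 and 56.7 FPKM in wild type 1 and 2 and at 79.3 and 71.0 FPKM in knockout 1 and 2 (limma unadjusted p = 0.00650, adjusted p = 0.183). Its partner Mpc1 was at a log2 fold change of -0.05. Pdk3, a paralogue of Pdk1, was lower in both knockout libraries, at 29.4 and 24.2 against 21.9 and 20.8 FPKM (limma unadjusted p = 0.0497).

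Among 12 tested partners and regulators of HIF 0 were called, 0 had a limma unadjusted p under 0.05, and the log2 fold changes lay between -0.17 and 0.24. Of 35 other tested hypoxia targets 0 were called, by limma, with a median of 0.06. At an unadjusted p under 0.05, 7 were higher and 3 lower (28.6%, against 15.4% of all tested genes). Angptl4, a secreted inhibitor of lipoprotein lipase, was at 6.62 and 4.82 FPKM in wild type 1 and 2 and at 12.6 and 18 FPKM in knockout 1 and 2 (log2 fold change 1.27 ± 0.21 (SE), limma adjusted p = 0.114). Ccng2, an unusual cyclin linked to growth arrest, was at 16.9 and 18.1 against 30.2 and 23.8 FPKM. The mitochondrial protein Higd1a and the glycogen-targeting subunit Ppp1r3c were also higher, and Selenbp1, a selenium-binding protein, was lower, at 440 and 631 against 353 and 284 FPKM.

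**Figure D5:**
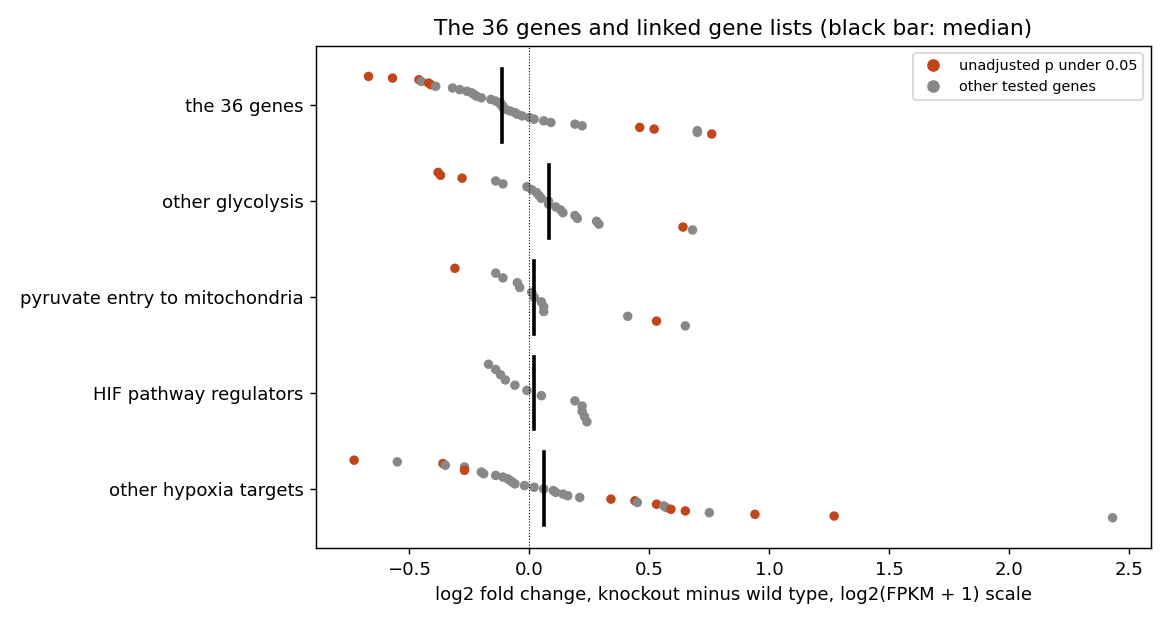
Log2 fold change (knockout minus wild type, log2(FPKM + 1) scale) of the 36 genes and of the tested genes of 4 linked lists; each point is a gene and black bars are medians. The median is -0.11 for the 36 genes and between 0.02 and 0.08 for the linked lists.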

How the data were processed

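RNA from 4 pooled tumour samples was sequenced, 2 per genotype, and groups were taken from the sample titles. The authors deposited FPKM per gene, as the values show: they are whole reads scaled by gene length and library total. Per the submitters' processing notes the build was mm10 and the tools TopHat2 and DESeq2, without versions or what each was used for. The sources used here give no counter, annotation, filter or strand setting. Of 35275 identifiers, 34490 matched a symbol in GENCODE M21 (GRCm38, the assembly of mm10), which also gave coordinates. Pseudogenes of Gapdh, Ldha and Pgam1 were at most at 0.619 FPKM, and how reads shared with copies were counted is not given. Car9, Tpi1, Pfkm, Pfkp, Gapdh and Hk1 also overlap other genes.

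The 13147 genes that reached 1 FPKM in 2 libraries were fitted as log2(FPKM + 1) by limma 3.58.1 (R 4.3.3), whose variance prior followed the intensity, and p-values were adjusted by Benjamini-Hochberg. There were 2 residual and 4.12 prior degrees of freedom. Fold changes on this scale understate those of low genes. Whole reads were recovered for 21600 of 21601 genes above 0 by searching for gene lengths that turn all 4 values into whole reads, to 0.002 reads plus the rounding of the values. That length was annotated for 5568 genes and otherwise the smallest that fitted, so reads could be undercounted. The script was tested on simulated data. The series' text speaks of 2 mice per genotype and the protocol of pooled tumours, and whether a pool held tumours of 1 mouse is not stated; p-values then measure the spread between these samples, which may be technical.

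All 36 genes are accounted for. Values per library are given for genes with an unadjusted p under 0.05, the most abundant of each role and isozyme families, and at most 5 genes of each linked list with the smallest unadjusted p under 0.05. Genes and lists were chosen with earlier results of these data known. Alternatives were quantile normalization, median centring, no trend, no filter, a filter at 5 FPKM, a replicate block, pseudocounts of 0.1 and 10, limma-voom on recovered reads, each library left out, and an adjusted p under 0.1.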

Additional observations from a re-analysis of the deposited data

How the results depend on the processing

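No gene of the 36 was called under any alternative but the crossed pairing below, except Hk2 (1 gene) without knockout 1, so that with a library left out the number ranged from 0 to 1. Over all genes 15 were called, 1 with no filter, 8 with limma-voom, 65 at an adjusted p under 0.1 and 10 to 252 with a library left out (252 without knockout 1, 55 without knockout 2, 10 without wild type 1). With the replicate block 69 were called, and 0 of the 36; with numbers crossed, a pairing added after seeing that same-numbered deviations correlated at -0.306, 848 and 7 were. Genes lower in knockout tumours without overlap numbered 14, and 17 to 22 with a library left out (22 without wild type 1); those higher numbered 4, and 4 to 14 (14 without wild type 2, 7 without knockout 1, 8 without knockout 2). Fewer libraries overlap less often by construction: without wild type 1, wild type 2, knockout 1 and knockout 2 in turn, 37.9%, 37.1%, 35.7% and 42.3% of all tested genes were lower and 32.3%, 37.7%, 39.1% and 34.0% higher, against 61.1%, 47.2%, 47.2% and 52.8% lower and 11.1%, 38.9%, 19.4% and 22.2% higher of the 36. With a library left out, the lone library of its group is assumed to vary like the other group.

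The median of -0.11 over the 36 genes ranged from -0.20 to -0.06 with a library left out. Medians of the linked lists moved more than their spread as follows: other glycolysis from -0.02 to 0.14 with a library left out; regulators of HIF to -0.02 and other hypoxia targets to -0.03 with quantile normalization, the latter also to -0.06 at 5 FPKM and from -0.04 to 0.05 with a library left out. Among the alternatives, calls in the pyruvate entry and other hypoxia target lists appeared only without knockout 1. There the knockout group was 1 library and calls over all genes also rose, so these calls carry no weight. The Hif1a share differed by -6.37 percentage points in FPKM and -3.88 in reads, which are not per length. The cause was not tested for the others.

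Of the values of single genes under alternatives, 446 kept direction and call, 18 changed direction and 1 passed the test. Direction changed when a library was left out for Slc2a1 (from -0.29 to 0.17), Pfkp (-0.03 to 0.15), Tpi1 (-0.41 to 0.01), Pgk1 (-0.38 to 0.06), Pgam1 (-0.13 to 0.08), Eno2 (-0.24 to 0.43), Ldhb (-0.30 to 0.06), Slc16a1 (-0.12 to 0.02), Slc16a3 (-0.40 to 0.40) and Car9 (-0.30 to 0.33), and for Slc16a3 at a pseudocount of 10 (-0.01) and Car9 with quantile normalization (-0.04). Adm had at most 60 reads in a library and Egln3 at most 302, so counting error adds to their spread.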

Other observations

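Another hypoxia target, chosen after its values were seen, was high in a single library. Apln, which encodes the vessel peptide apelin, was at 12.1 and 9.41 FPKM in wild type 1 and 2 and at 14 and 263 FPKM in knockout 1 and 2. Fbp2, the muscle-type fructose bisphosphatase that works against phosphofructokinase, was at 176 to 214 FPKM in the 4 libraries, near the level of Pfkl. Bsg, the chaperone of the lactate carriers, was at 763 to 989 FPKM, far above Slc16a1 and Slc16a3.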
